A study of Mus musculus with 6 samples.

Results

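Homeobox genes of the Hox clusters and of the Dlx, Nkx, Lhx and Irx families encode transcription factors that set position and cell identity in the embryo. Their H3K9me3, a histone mark of condensed chromatin, was profiled by CUT&Tag in quadriceps femoris, a skeletal muscle of the thigh, from mice of the Prr14-KO and Prr14-WT genotypes. Genes were taken by symbol: every region of the deposited table whose gene symbol was Hoxa, Hoxb, Hoxc or Hoxd with a number, or began with Dlx, Nkx, Lhx or Irx and a digit. This gave 801 of the 202553 regions and 63 of the 16587 gene symbols. Of these, 89 regions carried 29 Hox symbols, and 712 regions carried 34 symbols of the other 4 families, called dispersed families here because they lie outside the Hox clusters.

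The comparison was 3 Prr14-KO libraries (replicates 4, 5 and 7) against 3 Prr14-WT libraries (replicates 3, 4 and 8), all from flash-frozen muscle and all made with an anti-H3K9me3 antibody. Prr14 encodes a protein known to tie heterochromatin to the nuclear lamina, and the study asked about its part in muscle. The labels give no sex, age, batch or spike-in and do not say which part of Prr14 was deleted, in which cells, or whether each library came from a separate mouse. The p-values below therefore measure the spread between these libraries, which may be technical. H3K9me3 does not report transcripts, so neither the loss of Prr14 nor the tissue label could be checked against marker genes. Library totals ran from 4324444 to 4707466 counts in Prr14-KO and from 4636898 to 4756133 counts in Prr14-WT, of which 0.146 to 0.612% and 0.174 to 0.366% lay on the mitochondrial genome. The homeobox regions took 0.401 to 0.414% of the counts in Prr14-KO libraries and 0.402 to 0.414% in Prr14-WT libraries.

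Hox genes lie in 4 clusters, each a run of genes whose order follows the place along the body axis where they act, and genes at the same position in different clusters form paralogue groups. Dlx genes come in adjacent pairs and pattern the face, limbs and forebrain. Nkx genes act in heart, thyroid, brain and pancreas. Lhx genes, which carry LIM domains beside the homeobox, act in brain, pituitary and limb. Irx genes sit in a pair of widely spaced clusters and act in heart and nervous system. In adult tissues these genes are best known as targets of Polycomb and its mark H3K27me3, a silencing system separate from H3K9me3, which HP1 proteins read.

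The start sites themselves show how the mark met these genes. The 250 bases upstream of a RefSeq promoter start are printed for 5 genes, in the gene's own direction. Each CG dinucleotide is in capitals because start sites of developmental genes are rich in CG. The promoter start used need not be the first base of the gene span. The Dlx1 stretch lies inside its span, which begins at chr2:71528113, and the Hoxb1 stretch ends just past chr11:96365746, where its span begins. The sequences are from RefSeq, build GRCm38.p6. The first 3 lay wholly inside an H3K9me3 region, the Hoxb1 stretch was covered over 110 bases, and the Hoxa5 stretch, from the middle of the longest run of Hox genes without a region, was not covered at all. Another RefSeq promoter of Hoxd11, at the first base of its gene span (chr2:74679308-74679607), had 0 regions over it.
Hoxd13, chr2:74667975-74668224, plus strand: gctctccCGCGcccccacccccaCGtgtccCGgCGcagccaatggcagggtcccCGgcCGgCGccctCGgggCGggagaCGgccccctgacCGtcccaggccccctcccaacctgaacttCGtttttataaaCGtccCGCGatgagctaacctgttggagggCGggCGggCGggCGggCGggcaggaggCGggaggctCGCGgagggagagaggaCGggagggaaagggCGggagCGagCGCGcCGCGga
Hoxd11, chr2:74682073-74682322, plus strand: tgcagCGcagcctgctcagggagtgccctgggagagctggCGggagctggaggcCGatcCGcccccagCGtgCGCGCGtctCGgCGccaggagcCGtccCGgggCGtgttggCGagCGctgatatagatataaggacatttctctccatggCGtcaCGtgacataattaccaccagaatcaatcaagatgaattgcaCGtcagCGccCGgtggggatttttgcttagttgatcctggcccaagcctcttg
Dlx1, chr2:71529195-71529444, plus strand: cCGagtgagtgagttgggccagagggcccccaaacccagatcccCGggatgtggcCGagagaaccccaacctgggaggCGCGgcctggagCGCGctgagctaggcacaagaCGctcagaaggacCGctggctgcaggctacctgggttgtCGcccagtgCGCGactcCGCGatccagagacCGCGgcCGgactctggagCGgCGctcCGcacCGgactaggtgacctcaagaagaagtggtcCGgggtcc
Hoxb1, chr11:96365508-96365757, plus strand: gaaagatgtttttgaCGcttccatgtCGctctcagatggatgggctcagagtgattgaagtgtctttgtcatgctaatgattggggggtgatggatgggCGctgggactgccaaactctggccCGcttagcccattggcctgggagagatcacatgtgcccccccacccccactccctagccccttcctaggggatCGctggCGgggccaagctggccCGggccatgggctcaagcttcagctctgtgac
Hoxa5, chr6:52204588-52204837, minus strand: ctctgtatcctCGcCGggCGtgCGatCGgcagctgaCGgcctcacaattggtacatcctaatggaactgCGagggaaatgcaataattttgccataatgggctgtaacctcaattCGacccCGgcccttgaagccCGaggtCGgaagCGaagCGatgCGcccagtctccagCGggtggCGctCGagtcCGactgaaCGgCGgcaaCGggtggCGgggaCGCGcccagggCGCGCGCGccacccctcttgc

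These stretches held 31 CG dinucleotides for Hoxd13, 20 for Hoxd11, 22 for Dlx1, 7 for Hoxb1 and 28 for Hoxa5, so the stretch without a region was as rich in CG as most of those inside one. RefSeq promoter windows of 300 bases (250 before and 50 after the start) were found for 45 symbols that fit the same symbol rule, with 51 windows. These include Hoxa3, Hoxa5, Hoxa6, Hoxa7, Hoxd8 and Hoxd9, which have no assigned region and are not among the 63 symbols. An H3K9me3 region overlapped 13 of the 51 windows (25.5%), against 11.8% of all 32851 windows. The 13 belonged to Hoxb1, Hoxb4, Hoxc4, Hoxd1, Hoxd10, Hoxd11, Hoxd13, Dlx1, Irx2, Irx3, Lhx3, Nkx1-1 and Nkx1-2. Any overlap was counted, from all 300 bases in Hoxd11 and Hoxd13 down to the edge of a window. Only 34 bases were covered in Hoxc4, 30 in Lhx3, 22 in Irx3 and 15 in Nkx1-1. The homeobox windows had a median of 19 CG dinucleotides, against 7 in all windows, and the median was 25 in those that a region overlapped and 16.5 in the others.

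Short motifs known from homeobox factors were counted in the same windows on both strands, as a description only. TAAT, the core read by most homeodomains, stood in 56.9% of the homeobox windows and 58.0% of all windows, with 79.2% of the Hox windows and 37.0% of the dispersed ones. TGATNNAT, the joint site of Hox proteins and their Pbx partners, stood in 6 of 51 homeobox windows (11.8%) and in 8.85% of all windows. Hoxb1, known for a start-site element through which its own product acts with Pbx, was among the 6, together with Hoxa2, Hoxb8, Hoxd11, Lhx4 and Nkx6-2.

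The regions, a common list on which every library was counted, lay closer to Hox genes than to dispersed ones. The median distance from a region to its assigned start site was 5840 bp for Hox symbols, 71696 bp for dispersed symbols and 86830 bp over all regions. The authors placed 41.6% of Hox regions within 3 kb of a start as promoter, against 9.41% of dispersed regions and 6.31% of all regions. Intergenic regions made up 55.1%, 84.6% and 68.1%. A Hox symbol had 3.07 regions on average, a dispersed symbol 20.9, and one of all symbols had 12.2. Each region is assigned to 1 gene, and Hox genes stand close together; the part of that spacing in these counts was not tested.

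**Figure D1:**
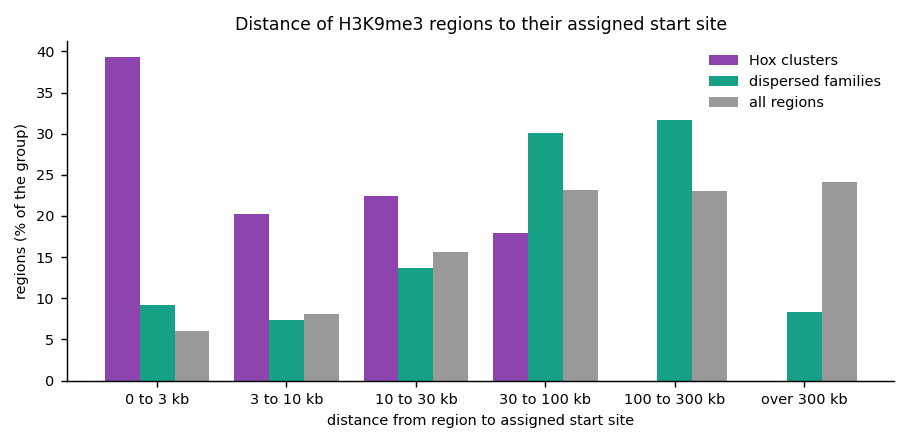
Share of H3K9me3 regions (vertical axis, % of the group) by distance to the assigned start site (horizontal axis, kb), for the Hox clusters, the dispersed families and all regions. Hox regions were most frequent within 3 kb (39.3%), against 9.13% of dispersed and 6.07% of all regions, and no Hox region lay beyond 100 kb.

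The families differed in this as well. Hoxd was the closest, with 70.0% of its 20 regions annotated as promoter and a median distance of 1192 bp. Hoxa (14 regions), Hoxb (27) and Hoxc (28) had 28.6%, 37.0% and 32.1% promoter regions, with medians of 6563, 8028 and 19307 bp. Irx was the farthest, with 2.79% of its 359 regions at promoters, 96.1% intergenic and a median of 132781 bp. Dlx (55 regions), Nkx (160) and Lhx (138) lay between, with medians of 24345, 35774 and 29466 bp, and Lhx had the most intronic regions of the dispersed families (17.4%).

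The level of the mark per length of region varied less. Counts were scaled to a library of 1000000 (CPM) with edgeR's TMM factors, and divided by the summed length of the regions they came to 11.4 CPM per kb for Hox, 12.3 for dispersed families and 11.7 over all regions. By family this pooled value ran from 9.36 CPM per kb in Hoxc to 13.4 in Dlx. The pooled value over all regions includes regions of up to 21030 CPM. The median per region was 11.3 CPM per kb for Hox, 12.4 for dispersed families and 10.2 over all regions, so by median Hox stood above all regions.

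Along the chromosome the 4 Hox clusters were covered unequally. Regions covered 9.61% of the 96.9 kb from Hoxd13 to Hoxd1, 6.75% of Hoxb, 4.79% of Hoxa and 4.003% of Hoxc, against 3.13% of the genome (each chromosome up to its last region). In the 100 kb before and after, by coordinate, cover was 7.99% and 3.02% for Hoxd and 4.24% and 3.54% for Hoxb. For Hoxa it was 2.58% and 5.34%, and for Hoxc 4.75% and 0.997%. The flank after Hoxa and the flank before Hoxc were thus covered more than the clusters themselves. The Hoxd span held 132 CPM per 100 kb, Hoxb 87.4, Hoxa 46.7 and Hoxc 39.5, and the genome 36.6. Of 39 RefSeq Hox genes, 25 had a region inside their span. The 10 to which no region was assigned were Hoxa3, Hoxa4, Hoxa5, Hoxa6, Hoxa7, Hoxb5, Hoxb7, Hoxc5, Hoxd8 and Hoxd9.

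**Figure D2:**
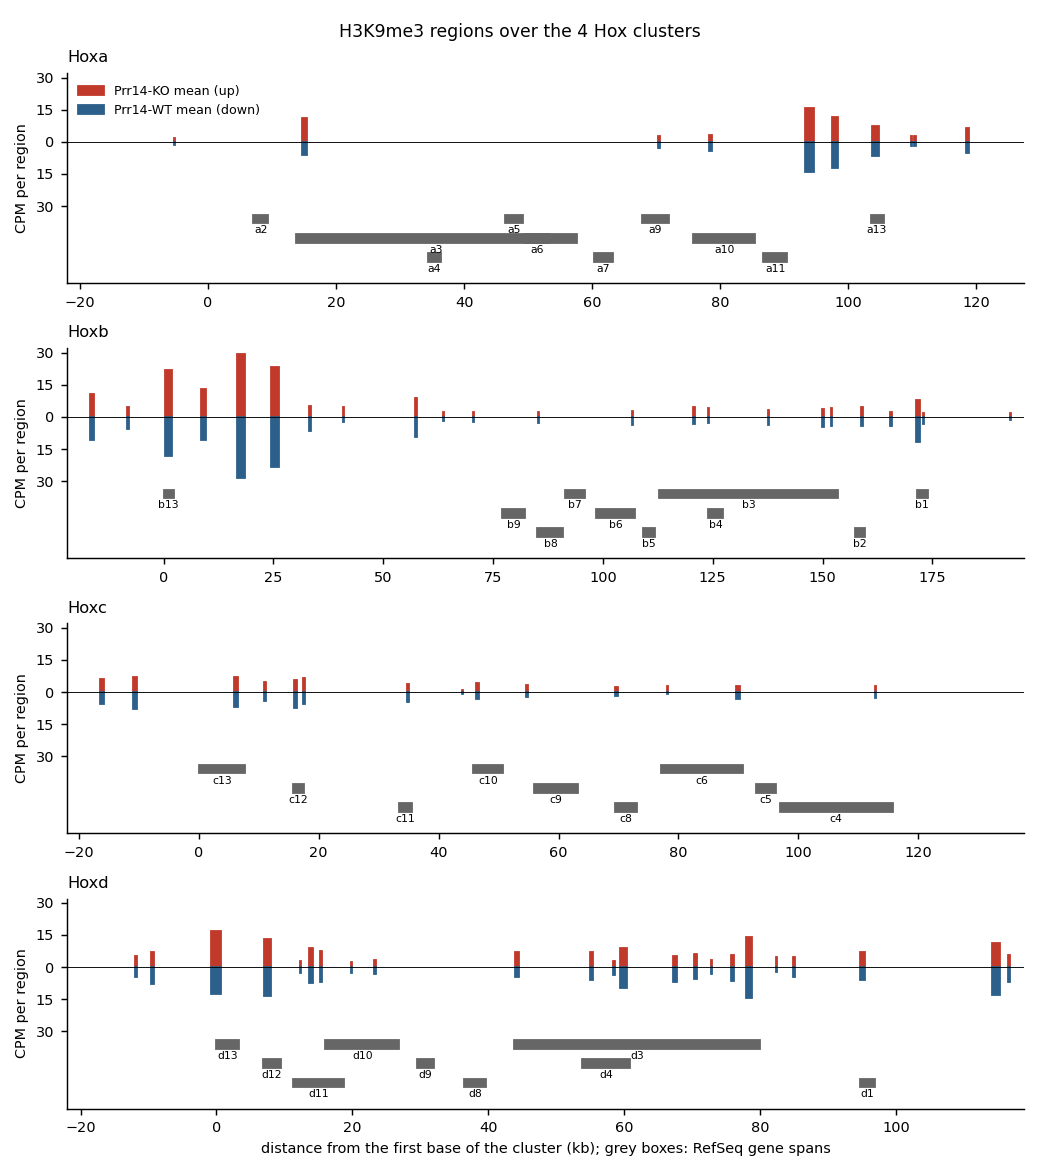
H3K9me3 regions over the Hox clusters, by distance from the first base of the cluster (horizontal axis, kb); bars give the mean CPM of each region over 3 libraries, upward for Prr14-KO and downward for Prr14-WT, and grey boxes RefSeq gene spans. The tallest bars lie at and beyond Hoxb13, a stretch of 54.8 kb over Hoxa4 to Hoxa7 has no region, and the bar within the Hoxa3 span is the region assigned to Hoxa2 (11.2 CPM in Prr14-KO, 6.38 CPM in Prr14-WT).

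The longest stretch without a region within a cluster was 54.8 kb in Hoxa (chr6:52170899-52225701), which holds Hoxa4, Hoxa5, Hoxa6 and Hoxa7. The corresponding stretches were 21.0 kb in Hoxb, around Hoxb7, 22.5 kb in Hoxc, around Hoxc5, and 20.4 kb in Hoxd, with Hoxd8 and Hoxd9. Paralogue group 13, whose genes act in digits, tail and genital region, had 29 of the 89 Hox regions and 214 ± 17.0 CPM in Prr14-KO, against 209 ± 8.36 CPM in Prr14-WT (SD, n = 3 each). Paralogue groups 9 to 13 together held 49 regions, with 322 ± 17.0 CPM in Prr14-KO and 312 ± 8.77 CPM in Prr14-WT, and groups 1 to 8 held 40 regions, with 186 ± 5.73 and 186 ± 7.88 CPM in the same genotypes. Without Hoxb13, groups 9 to 13 held 202 ± 3.96 CPM in Prr14-KO and 195 ± 9.39 CPM in Prr14-WT, nearer to groups 1 to 8. The order of the sums was the other way in Hoxd. There Hoxd10 to Hoxd13 held 55.4 ± 1.96 CPM in Prr14-KO and 49.3 ± 2.71 CPM in Prr14-WT, over 4.24 kb of regions. Hoxd1, Hoxd3 and Hoxd4 held 88.9 ± 4.29 CPM in Prr14-KO and 90.2 ± 4.56 CPM in Prr14-WT, over 6.82 kb. These sums also grow with region length. Over all clusters, groups 9 to 13 had 27.1 kb of regions at 11.7 CPM per kb, and groups 1 to 8 had 17.1 kb at 10.9 CPM per kb.

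Hoxb13, which acts in tail and prostate and stands apart from the rest of its cluster, was the most marked Hox gene, with 9 regions and 8.62 kb. Its sum was 142, 111 and 106 CPM in the Prr14-KO libraries, against 120, 117 and 113 CPM in the Prr14-WT libraries. The highest value was that of Prr14-KO replicate 4, and the genotypes overlapped (log2 change 0.01, SE 0.10). Of the other clusters, Hoxa13, a limb and genital patterning gene, led Hoxa with 30.5 ± 4.69 CPM in Prr14-KO and 28.0 ± 3.399 CPM in Prr14-WT (n = 3 each). Hoxc13, needed for hair and nails, led Hoxc with 14 regions and 47.6 ± 3.74 against 51.7 ± 3.38 CPM, in the same order. Hoxd3, which acts in the neck vertebrae, led Hoxd with 8 regions and 51.1 ± 1.597 CPM in Prr14-KO, against 47.9 ± 1.08 CPM in Prr14-WT. All Prr14-KO sums of Hoxd3 lay above all Prr14-WT sums, by a log2 change of 0.07 (SE 0.14), which did not pass the test.

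The pairs and clusters of the dispersed families were also covered more than the genome. Regions covered 17.0% of the 18.7 kb from Dlx5 to Dlx6, genes of limb and jaw, and 10.4% of the span from Dlx1 to Dlx2, forebrain genes. They covered 9.63% of the span from Dlx3 to Dlx4. The span from Irx1 to Irx4 ran over 1311 kb and held 179 regions, all assigned to Irx genes, with 5.23% covered and 66.6 CPM per 100 kb. The span from Irx3 to Irx6, of 882 kb, held 87 regions, with 3.87% covered and 43.5 CPM per 100 kb, close to the genome's 36.6. The 100 kb flanks of the Dlx pairs had 1.81 to 4.99% covered, less than each pair. Before and after Irx1 to Irx4, by coordinate, 9.29% and 4.72% were covered, and around Irx3 to Irx6 3.83% and 3.60%.

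Irx1 had the most regions of any homeobox gene, 109 over 44.7 kb, and summed to 463, 470 and 502 CPM in the Prr14-KO libraries, against 494, 491 and 478 CPM in the Prr14-WT libraries. The ranges overlapped (log2 change -0.05, SE 0.07). Irx2 followed with 95 regions, Nkx6-1, a gene of pancreatic beta cells and motor neurons, led Nkx with 54, Lhx8, a gene of forebrain neurons and oocytes, led Lhx with 43, and Dlx2 led Dlx with 21. Nkx6-1 summed to 242 ± 7.31 CPM in Prr14-KO and 239 ± 7.17 CPM in Prr14-WT. Lhx8 summed to 257 ± 11.7 CPM in Prr14-KO and 260 ± 11.0 CPM in Prr14-WT (n = 3 each). Dlx2 summed to 108 ± 0.754 CPM in Prr14-KO and 113 ± 12.2 CPM in Prr14-WT.

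Single homeobox regions reached 29.4 CPM at most, and most of the highest lay away from genes. The highest homeobox region was intergenic, at a distance of -10932 bp from the start of Dlx2, where a minus sign means upstream (chr2:71556889-71558482), with 135, 120 and 109 counts in Prr14-KO and 146, 169 and 130 in Prr14-WT. Next came a region 17599 bp downstream of the Hoxb13 start (chr11:96211088-96212741), with 29.2 ± 5.40 CPM in Prr14-KO and 28.6 ± 4.58 CPM in Prr14-WT. A region of only 415 bp, at -137388 bp from the start of Irx4, a gene of the heart ventricle (chr13:73122883-73123298), held 27.8 ± 2.42 against 28.1 ± 2.005 CPM. Per length it was the densest homeobox region, at 67.4 CPM per kb against a median of 12.3 CPM per kb over the homeobox regions. The others of the 10 highest were assigned to Nkx2-6, Lhx4, Lhx8, Lhx5, Hoxb13 and Nkx6-1, and within these 10 the genotypes overlapped in every region.

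At gene starts the Hox clusters led. Regions lay over the start of 9 genes, among them Hoxb1, Hoxb4, Hoxc8, Hoxd1, Hoxd11, Hoxd13, Lhx4 and Nkx2-6, and over none of the Dlx, Irx and Hoxa genes by the authors' gene models. The authors' distances and promoter classes refer to a transcript start, which need not be the start of their gene span. The highest region annotated within 1 kb of a start was that of Hoxb13 (chr11:96194733-96196219), with 135, 81 and 78 counts in Prr14-KO and 83, 82 and 92 in Prr14-WT. This Hoxb13 region lies within the gene, from 0.417 kb after its first base, and not over the start. Hoxd13, a digit gene, had 81, 84 and 60 counts in Prr14-KO, against 64, 49 and 64 in Prr14-WT (chr2:74667420-74668956). After scaling this was 16.9 ± 2.83 against 12.6 ± 1.76 CPM, with all Prr14-KO values above all Prr14-WT values (log2 change 0.42, SE 0.23, edgeR adjusted p = 0.998). The Hoxb1 start, the one printed above with partial cover, had 42, 31 and 32 counts in Prr14-KO, against 57, 50 and 60 in Prr14-WT (chr11:96365648-96366437). All Prr14-KO values were below all Prr14-WT values (log2 change -0.59, SE 0.28, edgeR adjusted p = 0.998).

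No homeobox region passed the test between genotypes. Of the 801 regions, 666 had enough counts to test, and 0 were called by edgeR at an adjusted p of 0.05, against 0.0130% of the 153789 regions tested in the whole table (20 regions). DESeq2 and limma-voom also called 0. An adjusted p is given for 702 of the homeobox regions in the authors' deposited table, and 0 are under 0.05. Unadjusted p was under 0.05 in 26 regions (3.90%), 16 higher and 10 lower in Prr14-KO, against 3.86% of all regions. The genotypes did not overlap in 66 (9.91%), 31 above and 35 below, against 9.60% of all regions. Both shares stood at the background.

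The changes were centred on 0, with 332 regions higher and 334 lower in Prr14-KO and a median log2 change of -0.00. They ran from -1.62 to 1.36, and the median SE of a region was 0.43. The 135 untested regions were 11 of Hox and 124 of dispersed symbols. A count here is a mix of how many nuclei carry the mark and how much each carries, which cannot be told apart in whole muscle. A gain or loss uniform over the genome would be scaled away.

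**Figure D3:**
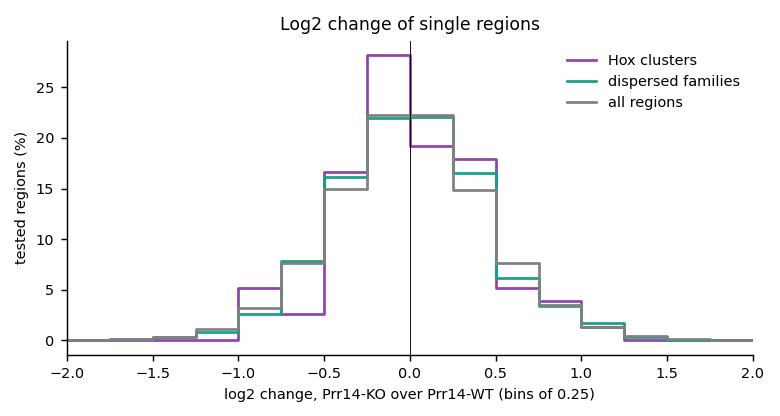
Log2 change of single tested regions, Prr14-KO over Prr14-WT (horizontal axis, bins of 0.25), as % of the tested regions of each group (vertical axis), for 78 Hox, 588 dispersed and 153789 regions in all. All 3 outlines are centred near 0.

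Irx had 18 of its 292 tested regions at an unadjusted p under 0.05 (6.16%), 12 higher and 6 lower, against 3.86% of all regions, and Lhx had 0 of 115. In the whole set Irx held 292 of the 666 tested regions. The regions with the smallest p and no overlap are given for each direction. Around Irx6, a region at chr8:92628331-92628571 had 29, 19 and 20 counts in Prr14-KO, against 9, 14 and 5 in Prr14-WT, while another in the same interval was lower (chr8:92584658-92585320), with 16, 16 and 20 counts in Prr14-KO against 35, 41 and 34 in Prr14-WT. Their log2 changes were 1.34 (SE 0.51) and -0.995 (SE 0.37), with an edgeR adjusted p of 0.998 for both. Between Irx1 and Irx4, 3 regions assigned to Irx2 had log2 changes of 1.05, 1.25 and 1.06, and another 2 had -1.62 and -1.04.

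A region inside Irx1, which the authors place at -139 bp from a transcript start but which lies nearer the 3′ end of the gene span than its start (chr13:71959253-71959891), had 40, 23 and 38 counts in Prr14-KO, against 50, 72 and 45 in Prr14-WT. All Prr14-KO values were lower (log2 change -0.65, SE 0.28, edgeR adjusted p = 0.998). A further Irx1 region at -303294 bp had a log2 change of -0.70 (SE 0.29), and a Nkx6-1 region 224835 bp downstream one of -0.98 (SE 0.37). Among Hox symbols, a region at 4996 bp from a Hoxd3 transcript start, within the RefSeq span of the noncoding gene Haglr, had 17, 20 and 27 counts in Prr14-KO and 10, 8 and 15 in Prr14-WT (log2 change 1.03, SE 0.50). A region 29356 bp downstream of the Hoxb1 start had 27, 29 and 18 counts in Prr14-KO and 16, 9 and 16 in Prr14-WT, the opposite direction to the Hoxb1 start (log2 change 0.92, SE 0.45). CUT&Tag reads carry no strand, so overlapping genes such as Haglr and Hoxd3, or Dlx6 and its antisense gene Dlx6os1, share their counts.

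Summed per gene, the result was the same. Of the 63 symbols 62 were tested (not Nkx6-3), and edgeR called 0 at an adjusted p of 0.05, against 0.0393% of the 15265 gene sums tested. DESeq2 and limma-voom called 0 as well. Unadjusted p was under 0.05 for 2 genes in edgeR, 0 in DESeq2 and 1 in limma-voom, against 3.58% of all gene sums in edgeR. The genotypes did not overlap for 4, Hoxd13, Hoxd3 and Irx5 with Prr14-KO above and Hoxb1 with Prr14-KO below, against 8.37% of all gene sums. The median log2 change was 0.03 over 29 Hox sums, -0.02 over 33 dispersed sums and 0.00 over all gene sums.

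**Figure D4:**
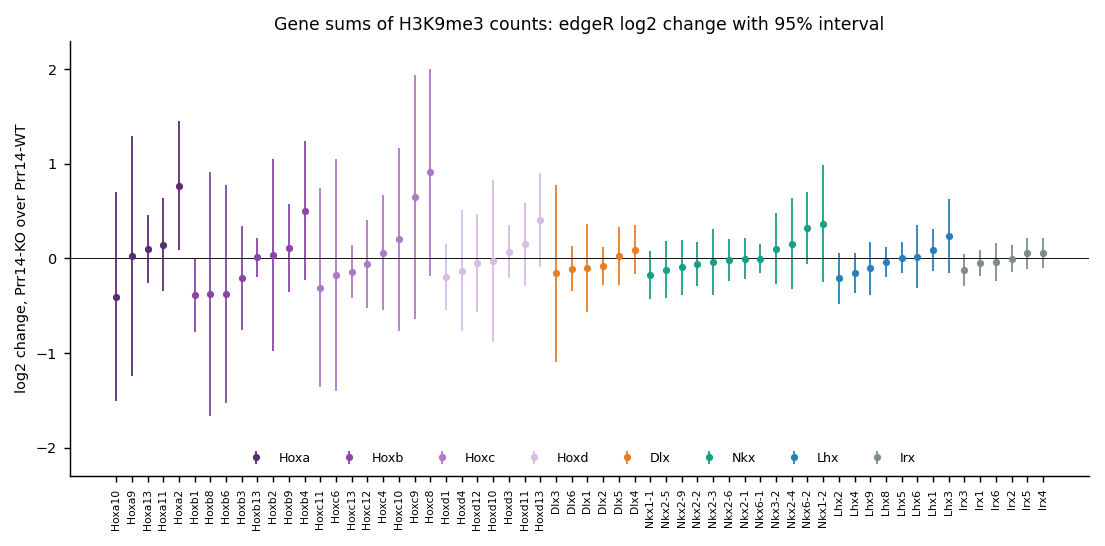
Log2 change of 60 of the 62 tested gene sums, Prr14-KO over Prr14-WT (vertical axis), with edgeR 95% intervals, grouped by family and ordered by change within each. Intervals are wider for Hox genes (median SE 0.31) than for dispersed genes (0.13), and those of Hoxa2 and Hoxb1 alone leave out 0 before adjustment.

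The 2 genes with an unadjusted p under 0.05 in edgeR (3.23% of those tested, against 3.58% of all gene sums) were Hoxb1 and Hoxa2, which changed in opposite directions. Hoxb1, which specifies a hindbrain segment, had 23.8, 20.1 and 19.4 CPM in the Prr14-KO libraries and 27.3, 26.0 and 28.7 CPM in the Prr14-WT libraries, so all Prr14-KO values were lower. The log2 change was -0.39 (SE 0.19, 95% interval -0.77 to -0.01, edgeR adjusted p = 1.00). Hoxa2, which acts in hindbrain and jaw arches, had a single region, which lies within the RefSeq span of Hoxa3, with 26, 56 and 65 counts in Prr14-KO against 33, 37 and 20 in Prr14-WT. The genotypes overlapped, and the log2 change was 0.77 (SE 0.34, edgeR adjusted p = 1.00).

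In each of the other families the gene with the smallest p was as follows. Hoxd13, whose only region is the one at its start, had a gene-sum log2 change of 0.41 (SE 0.25), with all Prr14-KO values higher. It was 0.30 without Prr14-WT replicate 4 and 0.54 without Prr14-KO replicate 7. Hoxc8, which acts in the trunk, had 15, 14 and 43 counts in Prr14-KO against 13, 9 and 18 in Prr14-WT, so its log2 change of 0.91 (SE 0.55) rested on Prr14-KO replicate 7 and was 0.17 without it. Dlx6 had a log2 change of -0.11 (SE 0.12) and Lhx2, a limb and eye gene, -0.21 (SE 0.14). Without Prr14-WT replicate 8 that of Dlx6 was -0.00157, and that of Lhx2 was -0.37 without Prr14-WT replicate 3 and -0.0929 without Prr14-WT replicate 4. Nkx6-2 had 0.32 (SE 0.19), and 0.49 without Prr14-WT replicate 8. Irx3 had -0.12 (SE 0.09), with -0.20 without Prr14-KO replicate 4 and -0.0720 without Prr14-KO replicate 7. The genes with many regions had narrow intervals, which bound only the sum over all regions, by the spread between these libraries. They were -0.19 to 0.09 for Irx1, -0.15 to 0.14 for Irx2, -0.16 to 0.15 for Nkx6-1 and -0.19 to 0.12 for Lhx8. With promoter and genic regions only, the log2 change was -0.25 (SE 0.25) for Irx1, 0.24 (SE 0.24) for Nkx6-1 and -0.06 (SE 0.12) for Lhx8. The interval for Hoxb13 was -0.19 to 0.22. Genes with few counts were not bounded in this way, such as Hoxa9, at -1.24 to 1.29.

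As whole families, the Hox symbols summed to 522, 497 and 505 CPM in the Prr14-KO libraries, against 502, 480 and 510 CPM in the Prr14-WT libraries, with a log2 ratio of the means of 0.03. The dispersed symbols summed to 3561 ± 52.3 CPM in Prr14-KO and 3565 ± 56.9 CPM in Prr14-WT (n = 3 each), a log2 ratio of -0.00. These sums are described without a test. Irx made up the largest part, with 1659 ± 50.4 and 1654 ± 15.7 CPM in Prr14-KO and Prr14-WT.

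**Figure D5:**
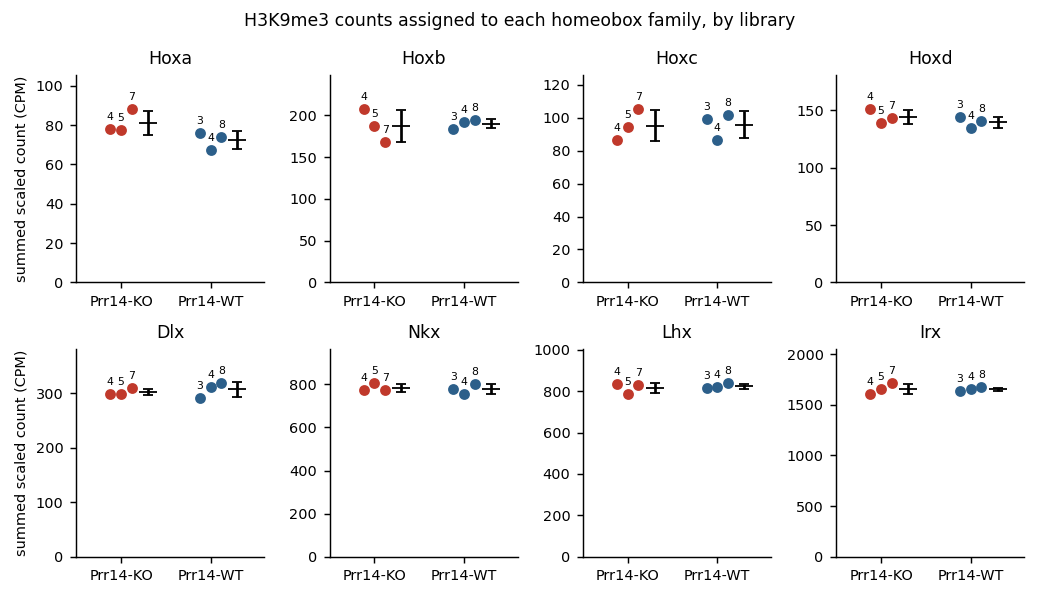
Summed CPM of each family (vertical axis, from 0) in 3 Prr14-KO and 3 Prr14-WT libraries; points are libraries with their replicate number, and bars the mean and SD. The genotypes overlap in 7 families, and in Hoxa the Prr14-KO values (77.5 to 88.0) lie above the Prr14-WT values (67.4 to 75.8).

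Hoxa was the family whose genotypes did not overlap, with 77.8, 77.5 and 88.0 CPM in Prr14-KO against 75.8, 67.4 and 73.8 CPM in Prr14-WT (log2 ratio 0.17). Without the region assigned to Hoxa2 they overlapped, at 69.9 ± 4.71 CPM in Prr14-KO and 65.9 ± 5.67 CPM in Prr14-WT. By position rather than by symbol, the span from Hoxd13 to Hoxd1 had 133, 129 and 136 CPM in Prr14-KO and 122, 124 and 123 CPM in Prr14-WT, all higher, with a log2 ratio of 0.11. The span from Hoxb9 to Hoxb1 had 39.4, 43.9 and 41.0 CPM in Prr14-KO and 45.8, 45.6 and 56.3 CPM in Prr14-WT, all lower, with a log2 ratio of -0.25. Over the whole Hoxb span, from Hoxb13 to Hoxb1, the genotypes overlapped, at 151 ± 13.9 CPM in Prr14-KO and 153 ± 6.02 CPM in Prr14-WT (log2 ratio -0.02). Of 13 spans compared, 3 had genotypes that did not overlap. Over the whole genome, 8.76% of bins of 100 kb with a region had genotypes that did not overlap. The spans ran from 18.6 to 1311 kb, and that from Hoxb9 to Hoxb1 lies within the Hoxb span. The share of spans and the share of bins are therefore not of like units.

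Genes that work with or beside these families showed no called change either. Of 52 other homeobox genes, such as the muscle factors Lbx1 and Pax7, 50 had a region, 49 were tested and 0 were called by edgeR in either direction (1 at an unadjusted p under 0.05). Pax7, the factor of muscle stem cells, had 92.2 ± 4.18 CPM in Prr14-KO and 92.1 ± 9.10 CPM in Prr14-WT. Of 15 cofactors of Hox and LIM proteins 13 were tested and 0 called (0 at an unadjusted p under 0.05), and Meis1, a Hox cofactor, had 325 ± 5.13 CPM in Prr14-KO and 318 ± 12.8 CPM in Prr14-WT. Of 12 Polycomb and trithorax genes 9 were tested and 0 called. Of these, 2 had an unadjusted p under 0.05. Ezh2, the H3K27 methyltransferase, was among them and was named after its value was seen. It had 15.5 ± 3.37 CPM in Prr14-KO and 9.67 ± 0.625 CPM in Prr14-WT (log2 change 0.65, SE 0.27, edgeR adjusted p = 1.00). The other gene had a smaller p and a larger change in the same direction. Over all gene sums, edgeR had 3.58% at an unadjusted p under 0.05 and called 0.0393%. The median log2 changes of the 3 lists were -0.01, 0.01 and 0.14, against 0.00 over all gene sums.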

How the data were processed

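H3K9me3 CUT&Tag of quadriceps femoris was analysed from 1 deposited table of 202553 regions by 6 libraries. Per the file headers, each library has whole-number counts per region, deposited without scaling, and these were tested. The authors' normalised signal, their log2 fold change and the score of each region were deposited too and were not used in a test. The authors' adjusted p-value is quoted where named. Per the submitters' processing notes the build was GRCm38 and the tools were DESeq2 1.6.3, bedtools, deepTools, MACS2, BWA and Trimmomatic; settings, the pooling of libraries for region calls, and whether positions count from 0 or 1 are not given in the sources used here. Gene symbols, distances and annotation classes are those the authors deposited.

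Counts of all regions, and their sums per symbol, were fitted with edgeR 4.0.16 in R 4.3.3 (TMM scaling, filterByExpr with minimum count 10 and minimum total 15, robust quasi-likelihood test, Benjamini-Hochberg over all features, threshold 0.05), without covariates. The procedure was tested on simulated data. Values with SD are TMM-scaled CPM, and a standard error is the log2 change over the root of its F. Gene spans and promoter sequences are from RefSeq GRCm38.p6. DESeq2 1.42.0 and limma-voom (limma 3.58.1), other scalings and filters, regions within 100 kb, promoter and genic regions only, and leaving out each library were the alternatives.

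Genes named were, per family, those with the most regions, most counts and smallest p. Regions named were the 6 per direction with the smallest p and no overlap, the 10 highest, and the 10 highest at starts; other named genes illustrate a count or a list. The members, lists and rules were chosen with earlier results of these data known. A few genes are not reported here by name and are not drawn in the figures.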

Additional observations from a re-analysis of the deposited data

How the results depend on the processing

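The counts of homeobox regions and gene sums past the threshold were 0 under all 13 and all 15 alternatives. The smallest adjusted p was 0.624 for regions and 0.278 for gene sums, both without Prr14-KO replicate 4, and with any other alternative it was at least 0.978 and 0.999. At an unadjusted p of 0.05 the counts ran from 12 to 31 regions (26 as reported) and from 0 to 6 gene sums (2 as reported), with 6 without Prr14-KO replicate 4 and 0 by DESeq2. The log2 ratio of the Hox sum ran from 0.00478 to 0.0481 on leaving out single libraries and was 0.0663 with promoter and genic regions only. That of the dispersed sum ran from -0.0132 to 0.0117 on leaving out single libraries, and was 0.062 with promoter and genic regions only, where that of all regions was 0.0228; the cause was not tested. For 47 named gene sums and regions, 634 alternatives were computed, of which 589 kept direction and side, 45 (21 items) turned the direction and 0 reached the threshold.

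Those that turned had reported log2 changes from -0.11 (Dlx6 sum) to 0.26 (Hoxb13 region at 96194733). With limma-voom the log2 change was -0.000832 for the Hoxb13 sum and 0.00475 for the Hoxd3 region at 74746139. With promoter and genic regions only it was -0.0445 for Hoxd3, 0.20 for Dlx2, 0.14 for Dlx6 and 0.24 for Nkx6-1. The Nkx6-1 sum was also 0.0102 with library totals, 0.00494 with a mean count of at least 20 and 0.14 within 100 kb. On leaving out single libraries, sums ran from -0.0073 to 0.21 for Hoxa13, -0.16 to 0.10 for Hoxb13, -0.14 to 0.0196 for Dlx2, -0.0337 to 0.0318 for Nkx6-1 and -0.0824 to 0.00567 for Lhx8. The Hoxb13 sum was lowest without Prr14-KO replicate 4. Regions away from starts ran from -0.078 to 0.18 and -0.18 to 0.17 (Hoxb13, at 96211088 and 96218746), -0.0717 to 0.0456 (Irx4), -0.10 to 0.11 (Lhx4), -0.082 to 0.19 (Lhx5) and -0.18 to 0.0688 (Nkx6-1). Regions annotated within 1 kb of a transcript start ran from -0.000255 to 0.39 (Hoxb13), -0.15 to 0.22 (Hoxd3), -0.24 to 0.13 (Lhx8), -0.17 to 0.0648 (Hoxd12), -0.0521 to 0.25 (Irx2), -0.0118 to 0.41 (Dlx6), -0.0573 to 0.47 (Nkx2-6) and -0.00529 to 0.40 (Dlx2). The causes were not tested. Depth limits single regions, whose median SE was 0.43. No paired analysis was possible because the labels give no pairs, and the replicate number that both genotypes share does not make one.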
